A study of Mus musculus with 14 samples.

Results

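Described here are the Mediator binding sites of Sim2-expressing mouse embryonic stem (ES) cells that had neither NANOG nor OCT4 beside them. The sites were chosen by their ChIP-seq peaks, that is by measured values. Peaks of the MED1 and MED12 lists of clone A6 whose centres lay within 100 bp were counted once, which gave 1606 Mediator sites, and 1449 of these lay outside chromosome 14 from 70 to 110 Mb, which was left out. A site was taken as a member where no peak of the NANOG or OCT4 list of clone A6 came within 100 bp of the 100 bp at its centre. This rule gave 387 members, and the 1062 other Mediator sites served for comparison. The absence of NANOG and OCT4 is therefore given by the choice and is not a result. The 3 members nearest to the limit lay 101, 102 and 104 bp from a NANOG or OCT4 peak (near Fbxo15, Srd5a3 and Tmbim4), and the 3 other sites nearest to it lay 96, 96 and 95 bp away (near Fam169a, Klf6 and Slc2a1).

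Clones A6, B8 and C4 are ES cell lines that express FLAG-tagged Sim2 from an inducible locus once tetracycline is withdrawn, and EB3 is their parental line without the tagged protein. All cells, EB3 included, were grown with LIF and kept for 26 h in medium free of tetracycline. FLAG ChIP was done in each of the 3 clones and in EB3, whereas the MED1, MED12, NANOG and OCT4 lists used here are of clone A6, 1 library each. A6 is a single clone that carries the Sim2 transgene, so the Mediator map has no replicate and no map of cells without Sim2 is set beside it here.

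Mediator is a large complex that passes signals from DNA-bound transcription factors to RNA polymerase II. MED1 is a subunit of its core that many activators contact, and MED12 belongs to the detachable kinase module, which also holds CDK8 and cyclin C. In ES cells Mediator is known for its high occupancy at enhancers bound by OCT4, SOX2 and NANOG, which makes the sites away from these factors the exception. Small nuclear RNA (snRNA) genes encode the RNA of the spliceosome and of histone mRNA processing. Most of them are transcribed by RNA polymerase II, and the U6 genes by RNA polymerase III, from short promoters that carry a proximal element and, further upstream, an enhancer that often holds an octamer motif.

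Each Mediator peak rested on few tags. The lowest number of tags in either list was 14, and the fold over the input was within 2% of the number of tags divided by the scaled input tags in all 762 MED1 and all 1071 MED12 peaks. The caller gave no input value below 3.4 tags for MED1 and 3.3 tags for MED12, so most folds were set against these floors. Of the members, 151 (39.0%, 34.3 to 44.0%) had exactly 14 tags, against 150 (14.1%, 12.2 to 16.3%) of the other sites. Ranges after a share, here and later, are 95% intervals by the method of Wilson and reflect the counting of sites alone. The median fold over the input, taken in the stronger subunit, was 4.41 for members (4.01 to 15.89) and 5.19 for the others (4.01 to 24.1). The members were thus the weaker Mediator sites, and only 81 of them (20.9%, 17.2 to 25.3%) reached 20 tags, against 405 (38.1%, 35.3 to 41.1%) of the others.

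Sequences of the sites on which the results turn are shown here, 200 bp around the site centre on the plus strand of mm9 and read from that assembly, shortened where an annotated untranslated region began. Capitals mark matches on either strand to the 13 motifs spelled out further on, and a sequence without capitals held none. The first set shows members that lie at or just upstream of snRNA genes of 5 kinds. The genes of U7 and U11 shown here lie on the minus strand and the others on the plus strand.
U1, near Eapp, chr12:55797557-55797756: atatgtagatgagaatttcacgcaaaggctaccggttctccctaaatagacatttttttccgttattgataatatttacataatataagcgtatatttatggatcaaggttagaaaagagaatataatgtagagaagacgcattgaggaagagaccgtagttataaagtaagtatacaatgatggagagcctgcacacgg
U4, near Sirt4, chr5:115939224-115939423: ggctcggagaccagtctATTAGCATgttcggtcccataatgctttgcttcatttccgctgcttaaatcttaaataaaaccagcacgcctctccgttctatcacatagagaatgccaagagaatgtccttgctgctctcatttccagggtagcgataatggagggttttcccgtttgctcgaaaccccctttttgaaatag
U6, near ORF61, chr10:79448001-79448200: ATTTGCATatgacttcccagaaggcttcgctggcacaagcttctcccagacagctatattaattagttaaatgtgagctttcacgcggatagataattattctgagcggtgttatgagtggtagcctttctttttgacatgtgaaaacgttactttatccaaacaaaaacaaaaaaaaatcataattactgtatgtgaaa
U7, near Grcc10, chr6:124691393-124691449: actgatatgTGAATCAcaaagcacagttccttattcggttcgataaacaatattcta
U11, near Taf12, chr4:131826084-131826283: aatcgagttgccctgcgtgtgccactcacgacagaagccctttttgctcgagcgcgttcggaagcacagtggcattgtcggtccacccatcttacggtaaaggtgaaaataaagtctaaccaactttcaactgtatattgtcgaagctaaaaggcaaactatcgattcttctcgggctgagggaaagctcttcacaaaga

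The second set shows the promoter members with the highest folds that were not at an snRNA gene, and 1 more histone gene.
Phc1 promoter, chr6:122290812-122291011: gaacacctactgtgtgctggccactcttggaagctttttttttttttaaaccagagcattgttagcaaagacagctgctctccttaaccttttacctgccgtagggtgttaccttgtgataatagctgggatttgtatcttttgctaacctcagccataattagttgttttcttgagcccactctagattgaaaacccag
Hist1h3d promoter, chr13:23666987-23667186: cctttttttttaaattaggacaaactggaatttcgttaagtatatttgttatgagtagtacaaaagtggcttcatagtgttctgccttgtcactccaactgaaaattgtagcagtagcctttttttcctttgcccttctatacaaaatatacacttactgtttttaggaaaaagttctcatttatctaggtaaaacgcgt
Hist1h3h promoter, chr13:21809322-21809412: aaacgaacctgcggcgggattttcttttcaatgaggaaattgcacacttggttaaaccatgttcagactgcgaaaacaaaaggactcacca

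The third set shows the 3 distal members with the highest folds, the member near Bmp4 that both subunits occupied, the single member at a SIM2 site, and the member with the most MED1 tags.
4931400O07Rik, distal, chrX:60028897-60029096: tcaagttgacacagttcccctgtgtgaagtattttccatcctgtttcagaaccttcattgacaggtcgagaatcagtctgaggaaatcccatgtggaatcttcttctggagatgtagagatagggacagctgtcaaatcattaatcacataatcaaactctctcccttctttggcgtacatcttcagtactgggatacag
Ric8b, distal, both subunits, chr10:84373411-84373610: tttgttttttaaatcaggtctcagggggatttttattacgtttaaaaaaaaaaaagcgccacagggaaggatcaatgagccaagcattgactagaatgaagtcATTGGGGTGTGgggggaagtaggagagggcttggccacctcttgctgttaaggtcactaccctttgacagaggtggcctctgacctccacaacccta
Cenpv, distal, chr11:62324804-62325003: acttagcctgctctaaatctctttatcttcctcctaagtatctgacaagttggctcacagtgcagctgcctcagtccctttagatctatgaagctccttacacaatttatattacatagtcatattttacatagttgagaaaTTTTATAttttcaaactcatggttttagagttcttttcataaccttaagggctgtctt
Bmp4, both subunits, chr14:47011550-47011749: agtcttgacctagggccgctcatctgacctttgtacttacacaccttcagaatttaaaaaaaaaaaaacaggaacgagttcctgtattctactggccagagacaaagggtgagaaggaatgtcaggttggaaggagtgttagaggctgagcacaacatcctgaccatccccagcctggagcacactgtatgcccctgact
Gabarapl2, SIM2 site, chr8:114467439-114467638: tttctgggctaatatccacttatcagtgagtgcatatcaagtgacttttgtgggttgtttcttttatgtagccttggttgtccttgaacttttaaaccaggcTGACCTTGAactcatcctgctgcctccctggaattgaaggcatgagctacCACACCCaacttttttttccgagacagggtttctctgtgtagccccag
Axin2, most MED1 tags, chr11:108873049-108873248: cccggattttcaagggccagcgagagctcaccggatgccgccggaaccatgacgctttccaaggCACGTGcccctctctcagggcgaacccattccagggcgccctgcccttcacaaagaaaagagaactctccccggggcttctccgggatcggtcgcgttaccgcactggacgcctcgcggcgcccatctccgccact

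Members lay at snRNA genes more often than the other Mediator sites did. A start of an annotated snRNA gene was found within 1 kb of 19 members (4.91%, 3.17 to 7.54%) and of 11 other sites (1.04%, 0.579 to 1.85%), a difference of 3.87 percentage points (1.95 to 6.54). Over all 1449 sites the share was 2.07%. The snRNA genes were singled out after their values were seen, so this difference carries no test. Since most members were MED1 only, the shares were also taken within 1 list. They were 6.67% of 270 members and 2.29% of 393 others with the MED1 list alone (difference 4.38 points, 1.24 to 8.16). With the MED12 list alone the shares were 1.57% of 127 and 0.568% of 880, and the interval of the difference, 1.01 points (-0.362 to 5.00), included 0. Of the 19 members 17 were MED1 only, 1 was MED12 only and 1 was both. In the whole peak lists, outside the left-out region, 27 of 663 MED1 peaks (4.07%, 2.81 to 5.86%) lay within 1 kb of an snRNA gene start, against 7 of 1007 MED12 peaks (0.695%, 0.337 to 1.43%), 23 of 14409 NANOG peaks (0.160%) and 8 of 2458 OCT4 peaks (0.325%). Input tags were above the floor at 9 of the 19 members (47.4%, 27.3 to 68.3%), and leaving out every site with such input left 10 of 314 members (3.18%) against 5 of 840 others (0.595%). The part of the input in this result was not otherwise tested.

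Most members at snRNA genes were centred on the promoter side of the start. In 12 of the 19 the centre lay within 200 bp upstream of the start, and in 6 it lay downstream, inside or beyond the short gene. The 11 other Mediator sites at snRNA genes also lay on both sides of the start. The U5 genes near Kif2c had other sites centred 98, 157 and 131 bp upstream. Those sites had 60, 46 and 49 MED1 tags and folds of 7.61, 12.4 and 11.74. The highest tag number and fold at snRNA genes were thus not at members. The annotation holds 1423 snRNA genes, many of them scattered copies of U6, and 20 of these (1.41%) had a member within 1 kb. The U5 RNA is part of the core of the spliceosome. Of the 10 U5 genes 3 had a member, 5 had another Mediator site and 7 had a site of either kind. For U6, with 936 annotated copies, 2 genes had a member. At 1 of these, near Tex14, the U6 start lay 880 bp from the centre and a U3 start 463 bp. A member was also found at 4 of 206 U1 genes, 4 of 51 U2 genes, 2 of 43 U4 genes, 1 of 116 U7 genes, 1 of 5 U11 genes and 1 of 6 U12 genes. U11 and U12 belong to the minor spliceosome, and U7 guides the cutting of histone mRNA. Of the windows of the 19 members, 18 matched a single place in the genome.

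The one with the most MED1 tags, 50, was at a U5 gene near Parp16, with a fold of 8.30 and its centre 43 bp upstream of the start. A neighbouring U5 gene on the same chromosome had 29 MED1 tags and a fold of 4.17, 73 bp upstream. The U5 member near Refbp2 had 30 tags and a fold of 4.98, 80 bp upstream. The U1 member near Eapp (chr12:55797522-55797792) had the highest fold and was the only one with both subunits, at 43 MED1 tags (fold 9.27) and 19 MED12 tags (fold 4.29). Within and beside Tex14, a gene of male germ cells that harbours a cluster of small RNA genes on chromosome 11, there were 5 members, all MED1 only. Of these, 2 lay at U1 genes, with 48 and 21 tags and folds of 6.47 and 6.18. The other 3, with 17, 14 and 21 tags, lay 389 to 463 bp downstream of the starts of U3 genes, which encode a small nucleolar RNA of ribosome synthesis.

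The minor and specialised RNAs had members of similar size. The U12 member had 36 MED1 tags and a fold of 6.47, 79 bp upstream of the start and also in the promoter of Poldip3. The U11 member had 26 tags and a fold of 7.01, 55 bp upstream. The U7 member, 45 bp upstream and at the start of Grcc10, had 20 tags and a fold of 5.88. The U4 member near Sirt4 had 22 tags and a fold of 6.47. A U6 member near ORF61 had 14 tags and a fold of 4.12, the lowest tag number a peak could have. Near Mreg 3 MED1 members of 17, 21 and 15 tags lay 294 to 420 bp downstream of the starts of a U2 gene and of 2 further snRNA genes (AC120136.2 and AC120136.1). The only member of this kind with MED12 alone was at a U1 gene near Olfr870, with a fold of 4.27. No FLAG peak of any clone was found at these 19 members, which at this number allows a share of up to 15.8%.

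**Figure D1:**
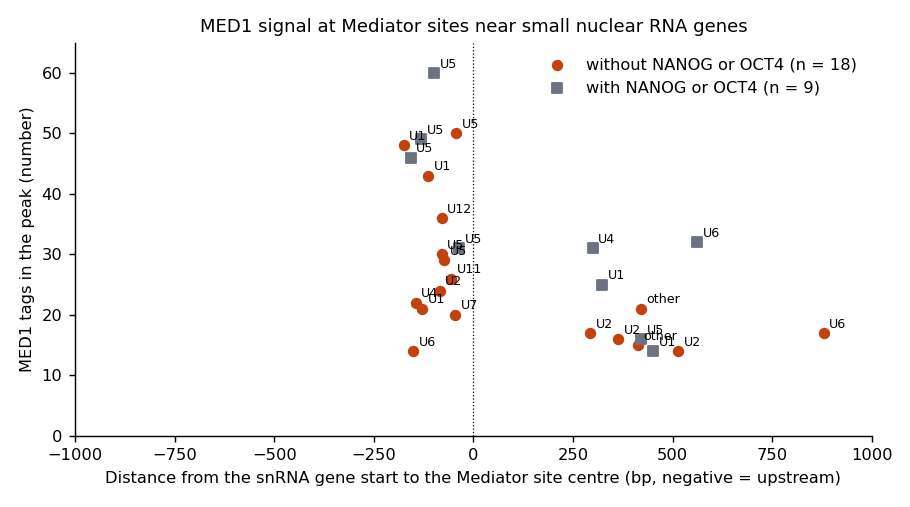
MED1 tags in the peak (vertical axis, number) against the distance in bp from the start of the nearest snRNA gene to the centre of the Mediator site (horizontal axis, negative upstream), for the 18 members and the 9 other sites with a MED1 peak within 1 kb. Each point is 1 site labelled by its RNA, "other" marking genes without a U name, and 12 members form a column within 200 bp upstream of the start with 14 to 50 tags.

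Other noncoding genes gave few members. A start of a small nucleolar RNA gene lay within 1 kb of 4 members and 1 other site. For microRNA genes the numbers were 5 and 3, for long intergenic RNA genes 3 and 3, and for the class that holds Y and 7SK RNA 1 and 4. Members at snRNA genes are not left out of these counts, and a small nucleolar RNA member near Tex14 was also a U6 member. A MED1 member of fold 5.88 lay 202 bp upstream of Malat1, and a MED12 member of fold 8.24 lay 114 bp upstream of Neat1, both long nuclear RNAs encoded side by side on chromosome 19. A second member at Neat1 was MED1 only, of fold 4.41, 1436 bp upstream. Malat1 and Neat1 were picked after their values were seen, and NANOG peak centres lay 359, 621 and 247 bp from these 3 members.

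The share of members at protein-coding promoters was not shown to differ from that of the other sites, a call that changed under 3 alternatives. A promoter was taken as 1 kb upstream to 300 bp downstream of a start site. It held 24 members (6.20%, 4.20 to 9.06%) and 45 others (4.24%, 3.18 to 5.62%), a difference of 1.96 percentage points (-0.468 to 5.01), against 4.76% of all sites (two-sided Fisher's exact test, p = 0.126, adjusted p = 0.147 over the 7 tests of the family). With the promoters of all annotated genes, noncoding ones included, the shares were 13.2% (10.2 to 16.9%) and 6.87% (5.50 to 8.56%), and the difference passed the threshold (Fisher's exact test, adjusted p = 0.000322). It also passed where NANOG and OCT4 peaks had to reach 8 times the input, which made 531 members (difference 4.08 points, Fisher's exact test, adjusted p = 0.000879). With Mediator peaks of at least 8 times the input, 13 members were left and the difference was 21.0 points (Fisher's exact test, adjusted p = 0.0139). Of the 24 promoter members 16 were MED1 only, 7 were MED12 only and 1 was both. By location 242 members (62.5%, 57.6 to 67.2%) were intergenic, 110 (28.4%, 24.2 to 33.1%) were in introns and 11 (2.84%, 1.59 to 5.02%) in exons, against 65.9%, 28.7% and 1.13% of the others.

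Replication-dependent histone genes, which are expressed in S phase from clustered short promoters, were the promoters of 6 of the 24 promoter members. These served 8 of the 67 annotated histone genes (11.9%), against 28 of all 22232 protein-coding genes (0.126%). Histone promoters were not particular to members, since 3 other Mediator sites also lay at them. Such other sites were found at the promoters of 4 of the 67 histone genes, against 45 of all 22232 protein-coding genes. The list of histone genes was set with earlier results of these data known and is described by its counts alone. Of the 6 sites 5 were on chromosome 13 and 5 were MED1 only. Hist1h3d had 29 MED1 tags and a fold of 8.53, Hist1h3h had 20 tags (fold 5.88), Hist1h2bl 17 tags (fold 5.00), Hist1h2ac 15 tags (fold 4.04) and Hist2h4 14 tags (fold 4.12). Hist1h3b was the MED12 member, with 15 tags and a fold of 4.58. Except for Hist1h3d, with a NANOG peak centre 383 bp away, the nearest NANOG peak centre lay between 4509 and 58101 bp from these sites.

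Of the other promoter members, 4 also lay at snRNA genes (Eapp, Poldip3, Grcc10 and Refbp2), which left 14 at neither kind of gene. Phc1, a subunit of the Polycomb repressive complex 1, had the highest fold of all promoter members, 10.37 from 34 MED12 tags 332 bp upstream of the start, with a NANOG peak centre 274 bp away. Gadd45g, a stress-induced growth arrest gene, had 18 MED12 tags and a fold of 5.49, and D6Wsu163e had the same number of tags and the same fold 37 bp upstream of its start. Jarid2, a cofactor of Polycomb repressive complex 2, had 15 MED12 tags (fold 4.58) at its promoter. Sulf2, which removes sulphate groups from heparan sulphate, had 18 MED1 tags and a fold of 5.30. Gene lists of pluripotency regulators (19 genes), immediate early genes (20), signal targets (16), Mediator and its kinase module (33), ribosomal proteins (79), translation factors (66) and Hox genes (39) had no promoter member. Over all protein-coding genes the share with a promoter member was 0.126%, so lists of these sizes could not show a lack. None of the 24 promoter members was rich in CpG, and their median GC content was 39.2% over 200 bp.

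A MED1 peak without a MED12 peak was the usual state of a member. A subunit without a peak may still be bound weakly, since no peak held fewer than 14 tags. MED1 alone marked 260 members (67.2%, 62.4 to 71.7%), MED12 alone 118 (30.5%, 26.1 to 35.3%) and both 9 (2.33%, 1.23 to 4.36%). Among the other sites MED12 alone marked 668 (62.9%, 59.95 to 65.8%), MED1 alone 182 (17.1%, 15.0 to 19.5%) and both 212 (19.96%, 17.7 to 22.5%). The share with both subunits was lower in members by 17.6 percentage points, a difference of -17.6 (-20.4 to -14.6), against 15.3% of all sites (Fisher's exact test, adjusted p = 1.18e-20). The share with MED12 alone differed by -32.4 points (-37.6 to -26.8), against 54.2% of all sites (Fisher's exact test, adjusted p = 1.31e-27). MED1 and MED12 shared an input but are single libraries with different antibodies, so the site is the unit of these tests and they describe these libraries. Among peaks of at least 8 times the input only 13 members were left, and there the share with both subunits no longer passed (Fisher's exact test, adjusted p = 0.178). Members were the weaker sites, and the subunit shares were not compared within classes of similar fold.

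The 9 members with both subunits were weak with a few exceptions. The site near Ric8b (chr10:84373392-84373626), a chaperone of G protein alpha subunits, had 25 MED1 tags (fold 7.36) and 40 MED12 tags (fold 12.2). The Bmp4 site (chr14:47011518-47011781), 1305 bp upstream of this gene of a signal that sustains ES cells, had 24 MED1 tags (fold 7.06) and 18 MED12 tags (fold 5.49). The site near the amino acid transporter gene Slc38a2 had folds of 5.00 and 4.58, that near Ckap4 4.12 and 4.58, and that near Slc15a4 4.41 and 4.27 for MED1 and MED12. In 5 of the 9 a NANOG peak centre lay within 1 kb.

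**Figure D2:**
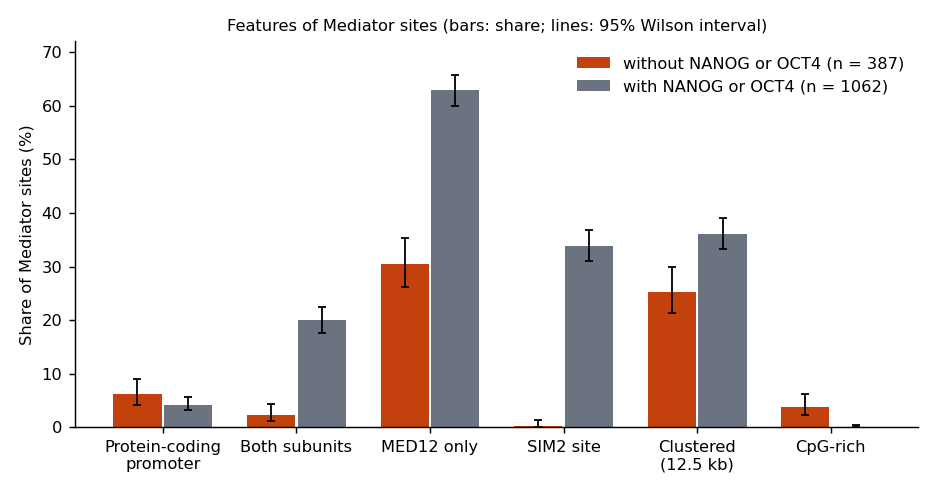
Share of Mediator sites (vertical axis, percent) with each feature on the horizontal axis, for the 387 members and the 1062 sites with NANOG or OCT4. Bars give the share and lines its 95% Wilson interval, and members lie lower for both subunits, MED12 only, SIM2 sites and clustering and higher for CpG-rich windows.

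Not all members were far from NANOG. The nearest NANOG peak centre lay within 500 bp of 61 members, from 500 bp to 1 kb from 33, from 1 to 5 kb from 35, from 5 to 10 kb from 20, from 10 to 100 kb from 139 and beyond 100 kb from 99, with a median of 25636 bp. The 94 members within 1 kb were MED1 only in 49 cases, MED12 only in 40 and both in 5. The 238 members beyond 10 kb were MED1 only in 171 cases (71.8%, 65.8 to 77.2%). Of the 94, 42 had another Mediator site within 1 kb. Over all members 52 had such a neighbour, which carried NANOG or OCT4 in 38 cases. In 27 of these the neighbour had a peak of the subunit that the member lacked. Folds of at least 8 were found in 8 of the 94 members within 1 kb (8.51%, 4.38 to 15.9%) and in 4 of the 238 beyond 10 kb (1.68%, 0.655 to 4.24%). Phc1, Ric8b, Cenpv and Stoml1, among the highest folds of all members, had NANOG peak centres 274, 332, 308 and 270 bp away, and for OCT4 the distances were 254, 345, 280 and 261 bp. These high values therefore belonged to members just outside the window of the rule.

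**Figure D3:**
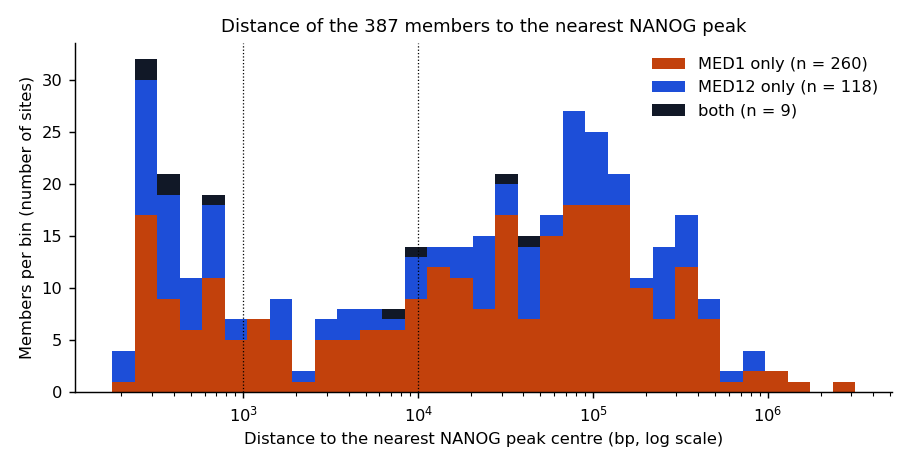
Number of members per bin (vertical axis) by distance to the nearest NANOG peak centre (horizontal axis, bp, log scale), stacked by subunit for the 260 MED1 only, 118 MED12 only and 9 both. Dotted lines mark 1 kb and 10 kb, and the members form a group within 1 kb (94 sites) and a broader one beyond 10 kb (238 sites).

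The strongest distal members, more than 5 kb from a protein-coding start, were of several kinds. The highest fold of all members, 15.89 from 54 MED1 tags, lay 307830 bp from 4931400O07Rik on chromosome X (chrX:60028889-60029103), and its window had 6 matches in the genome. The Cenpv site, in an intron, had 39 MED1 tags and a fold of 11.47, and the Stoml1 site had 51 MED1 tags and a fold of 9.17. The site near the olfactory receptor gene Olfr161 had 30 tags (fold 8.83) and 3 genome matches. The sites nearest to Rpp21, a protein of RNase P, and to Ptprj, a receptor tyrosine phosphatase, had folds of 8.43 and 8.36 and were rich in CpG. The last of these 8 sites was the U5 gene near Parp16. All were MED1 only except Ric8b, which was both.

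Members clustered less with other Mediator sites than the rest did, by an amount that moved with the settings. Another Mediator site lay within about 12 kb, the distance often used to join enhancers into super-enhancers, of 98 members (25.3%, 21.2 to 29.9%) and of 383 others (36.1%, 33.2 to 39.0%), a difference of -10.7 percentage points (-15.8 to -5.37), against 33.2% of all sites (Fisher's exact test, adjusted p = 0.000164). With the MED12 list alone the difference was -8.33 points and no longer passed (Fisher's exact test, adjusted p = 0.0645), and among Mediator peaks of at least 8 times the input it reversed to 0.699 points (Fisher's exact test, adjusted p = 1.0), with 13 members left. It was -5.80 points when centres within 200 bp were merged (Fisher's exact test, adjusted p = 0.0477) and -17.0 at 50 bp, and -6.00 points when NANOG or OCT4 had to overlap the site (Fisher's exact test, adjusted p = 0.0343) and -21.0 with a window of 1000 bp. By distance class the share of members was 50 of 94 (53.2%, 43.2 to 63.0%) within 1 kb of NANOG, 32 of 55 (58.2%, 45.0 to 70.3%) from 1 to 10 kb and 16 of 238 (6.72%, 4.18 to 10.6%) beyond 10 kb.

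SIM2 was nearly absent from the members. A SIM2 site, that is a FLAG site in at least 2 clones and without an EB3 peak, lay within 100 bp of 1 member (0.258%, 0.0456 to 1.45%) and of 360 others (33.9%, 31.1 to 36.8%), a difference of -33.6 percentage points (-36.5 to -30.6), against 24.9% of all sites (Fisher's exact test, adjusted p = 3.94e-55). Each clone gave the same order on its own. A6 had FLAG peaks at 8 members (2.07%, 1.05 to 4.03%) and 563 others (53.0%, 50.01 to 56.0%), against 39.4% of all sites. B8 had them at 7 members (1.81%, 0.879 to 3.69%) and 462 others (43.5%, 40.6 to 46.5%), against 32.4%. C4, whose list is the shortest, had them at 4 members (1.03%, 0.403 to 2.63%) and 157 others (14.8%, 12.8 to 17.0%), against 11.1%. The share was lower in members in all 3 clones (Fisher's exact tests, adjusted p = 3.92e-87, 3.00e-66 and 8.35e-18). That SIM2 sites lie mostly at NANOG peaks was known from these lists, and the difference is not independent evidence of it.

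The parental EB3 control had no FLAG peak within 100 bp of any Mediator site. For the members 0 of 387 allows a share of up to 0.775%, and the test could not separate the groups (Fisher's exact test, adjusted p = 1.0). Any FLAG peak of a clone was found at 17 members, and 13 of these had a NANOG peak centre within 1 kb. Within 1 kb of NANOG 6, 5 and 4 of the 94 members had a FLAG peak in A6, B8 and C4, against 0, 2 and 0 of the 238 members beyond 10 kb. The member at a SIM2 site lay in an intron of Gabarapl2 (chr8:114467430-114467646), an autophagy gene of the ATG8 family. It had 16 MED12 tags and a fold of 4.88, and its FLAG peaks held 10.7, 6.1 and 2.2 normalised tags in A6, B8 and C4. NANOG and OCT4 peak centres lay 294 and 263 bp from it. The highest A6 FLAG value among members, 16.3 normalised tags, was at the Bmp4 site, which had no FLAG peak in B8 or C4. Fam60a and Ctbp2 members followed with 11.6 each.

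**Figure D4:**
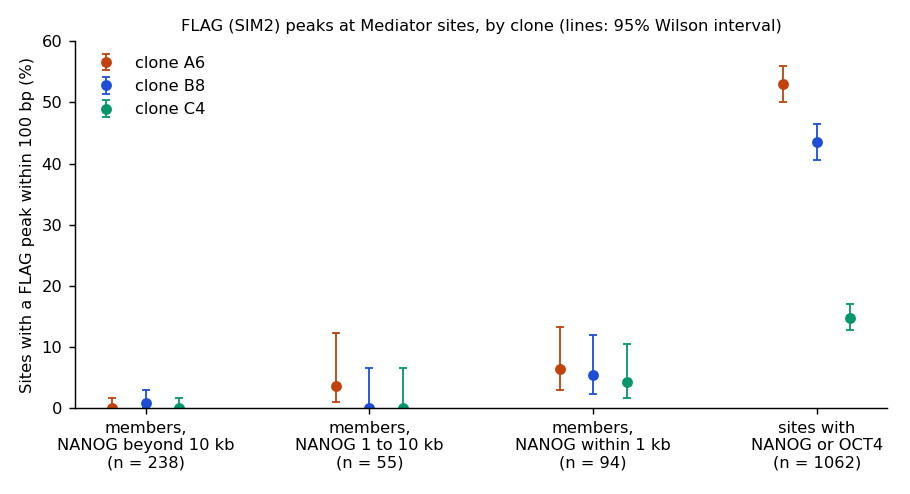
Share of sites with a FLAG peak within 100 bp (vertical axis, percent) for members in 3 classes of distance to NANOG and for the 1062 sites with NANOG or OCT4 (horizontal axis), by clone. Points give the share and lines the 95% Wilson interval, and every clone has its highest share, 14.8 to 53.0%, at the sites with NANOG or OCT4.

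Of the 8 members with the highest normalised MED1 tag counts, 6 were CpG-rich and all had at least 13.4 input tags. A window of 200 bp with at least 50% GC and an observed over expected CpG ratio of at least 0.6 was found at 15 members (3.88%, 2.36 to 6.30%) and at 0 of 1062 others, which allows up to 0.282%, against 1.04% of all sites (Fisher's exact test, adjusted p = 3.59e-09). Of the 15, 14 were MED1 only and 13 had input tags above the floor. Leaving out all sites with input above the floor ended the call, with a difference of 0.637 points (Fisher's exact test, adjusted p = 0.103), and with the MED12 list alone it was 0.787 points (Fisher's exact test, adjusted p = 0.161). The site near Axin2, 88653 bp from its start, had 251 MED1 tags over 43.1 input tags (fold 5.82). The sites in introns of Cdk8 and Filip1l had 230 tags over 33.8 and 142 tags over 23.2 (folds 6.80 and 6.13). Input values above the highest of any other MED1 site, 7.9 tags, were found at 18 members. Of these, 8 were CpG-rich, 11 had at least 2 matches in the genome, and 0 had a MED12 peak, a promoter or a FLAG peak, which allows a share of up to 16.7% for each. The gene names Axin2, a target of Wnt signalling, and Cdk8, the Mediator kinase, mark position only. The remaining CpG-rich member was the MED12 site at Neat1, with input at the floor. The CpG-rich windows were compared with the mm9 assembly alone, and what repeated sequence absent from it contributes to their tags was not tested.

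**Figure D5:**
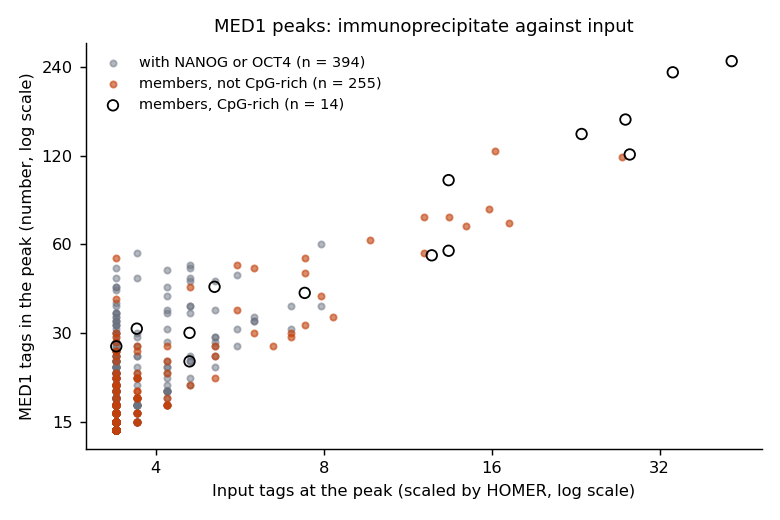
MED1 tags in the peak (vertical axis, number, log scale) against scaled input tags (horizontal axis, log scale) for the 394 other sites, 255 members that were not CpG-rich and 14 CpG-rich members with a MED1 peak. Points right of 7.9 input tags are all members, and the highest, near Axin2, has 251 tags over 43.1.

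Most members nevertheless lay in AT-rich sequence. The median GC content was 35.0% in members (upper quartile 41.8%) and 44.0% in the others (47.5%). It was 35.0% in MED1 only and 34.8% in MED12 only members, against 41.8% and 44.5% in the other sites with the same subunit, so the shift was seen with either subunit. Members within 1 kb of NANOG had a median of 38.5% and those beyond 10 kb 33.0%. Sequence that occurs more than once in the genome, at 90% identity or more over at least 160 bp, was found at 63 members (16.3%, 12.9 to 20.3%) and 107 others (10.1%, 8.41 to 12.03%).

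Exact matches to 13 short motifs were searched on both strands of the 200 bp windows, and none of the motifs contains another. The octamer (ATGCNAAT), the DNA element of POU factors such as OCT4, was found in 16 members (4.13%, 2.56 to 6.61%) and 126 others (11.9%, 10.1 to 13.9%), against 12.6% of NANOG peaks and 1.40% of the windows at protein-coding starts, the background also given for the other motifs. The KLF motif (GGGTGTG) was found in 11 members (2.84%) and 88 others (8.29%), against 5.02% of protein-coding starts. Both motifs, which belong to factors of the pluripotency network, were less frequent in members. The rule leaves out sites with OCT4 or NANOG peaks, so these shares are not independent of the choice of members. The letters of the TATA box (TATAAAA) were found in 58 members (15.0%) and 36 others (3.39%), against 2.49% of protein-coding starts. They are A and T alone, and the median GC content was 35.0% in members and 44.0% in the others. What base composition contributes to this and the other motif shares was not tested. The GC box (GGGCGG), bound by SP factors, was found in 14 members (3.62%) and 49 others (4.61%), against 38.6% of protein-coding starts. In this respect neither kind of site resembled the usual promoter.

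The remaining motifs were rare or alike in both kinds of site. The NFY motif (CCAAT) was found in 25.8% of members and 23.8% of others, against 24.5% of protein-coding starts. That of ESRRB (TCAAGGTCA), a nuclear receptor of ES cells, was found in 11 members and 49 others, against 0.163% of protein-coding starts. The AP-1 motif (TGANTCA) was found in 22 members and 89 others, against 3.98% of protein-coding starts. The SIM2 and ARNT pair is known to bind the letters TACGTG, and these were found in 5 members (1.29%) and 20 others (1.88%), against 2.16% of protein-coding starts. The E-box, which differs from them in the first base only (CACGTG), was found in 8 members and 18 others, against 5.20%. The NRF1 motif (GCGCATGCG) was found in 1 member and 0 others, against 1.51% of protein-coding starts. No member held the motifs of ETS factors (CCGGAAGT), which 3.76% of protein-coding starts held, of YY1 (AAGATGGCG), which 1.84% held, or of CREB (TGACGTCA), which 1.64% held. Of the 12 windows just upstream of snRNA genes, 3 held the octamer (interval 8.89 to 53.2%), against 3.30% of the 200 bases before all 1423 snRNA genes. The sets are unlike, since 936 of the 1423 genes are U6 copies. The 12 windows are centred on the sites, whereas the reference windows end at the gene start. The motif shares are descriptions, and a match is no binding site.

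The members had 350 nearest protein-coding genes, 1.57% of all, at a median distance of 31808 bp, against 20217 bp for the other sites. Most genes were nearest to 1 or 2 members, and 8 were nearest to 3 or more. Tex14, with the small RNA cluster, had 5. Of the other genes named by the rule, Mreg had the 3 members near snRNA gene starts that are described above. Lphn3 had 3 MED1 sites between 1552429 and 1559231 bp upstream of its start, with 3 genome matches each. Ctbp2, a corepressor, had 2 MED12 members and 1 MED1 member between 2370 bp upstream and 2094 bp downstream of its start, with folds from 4.12 to 5.80. Gpc5, a cell surface proteoglycan, had 3 MED1 members with folds from 4.12 to 4.71, and Jarid2 and Pcdh7 also had 3 members each.

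Around Sox2, a core pluripotency gene, 3 members were found. They lay 3905 bp upstream (MED1, 15 tags, fold 4.41), 42693 bp downstream (MED12, 17 tags, fold 5.19) and 85876 bp downstream (MED1, 17 tags, fold 5.00) of its start, and their nearest NANOG peak centres were 285, 24302 and 825 bp away. Prdm14, which represses differentiation genes in ES cells, was nearest to a MED12 member of fold 4.58. Those were the 2 of 19 pluripotency regulators nearest to a member, against 1.57% of all protein-coding genes. At that share, 1 gene or none in lists of these sizes is no result about a list. Of the other lists, genes nearest to a member were Myc (1 of 20 immediate early genes, MED1, fold 4.12), Axin2 (1 of 16 signal targets), Cdk8 (1 of 33 Mediator genes), Eif4b (1 of 66 translation factors, MED1, fold 5.00) and 9 of 67 histone genes, and no ribosomal protein gene was nearest to a member.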

How the data were processed

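The reads were mapped by the authors to mm9 with BWA, duplicates were removed and peaks were called with HOMER against the input of each experiment (versions not given in the sources used here). The deposited lists give for each peak a normalised tag count, which is a signal scaled to library size, a focus ratio, which is a fraction, a score, the total tags, whole counts in the MED1 and MED12 lists, and the fold over input, a ratio, with its p-value, all computed by HOMER for the authors. If the signal was scaled to 10 M tags, its steps correspond to 15.7 M MED1 and 15.0 M MED12 tags.

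Members were found as described, SIM2 sites were FLAG sites of at least 2 of the 3 clones with no EB3 peak centre within 100 bp, and genes were those of GENCODE vM1, built on the assembly of mm9. Sequences came from that assembly. Genome matches were counted with BLAST+ 2.17.0. Shares were compared with two-sided Fisher's exact tests with Benjamini-Hochberg adjustment over 7 tests, and the 3 clones as a family of their own. Sites are not independent replicates, and each Mediator, NANOG and OCT4 list is 1 library, so the tests describe these libraries. The steps were tested on simulated data, where 100.0% of 1500 sites were classed as planted. The simulated NANOG peaks lay clearly inside or clearly outside the window, so this says nothing about sites near its limit. Alternatives covered the merging distance, the window, the peak intervals, stricter peaks, chromosome 14, promoter definitions, the clones, the sequence window and the clustering distance. Classes of site strength were used for the promoter and SIM2 shares only. Input, genome matches and single Mediator lists were added after seeing the data. The 8 promoter and 8 distal members with the highest folds, the 6 with both subunits and the highest mean fold, the members at SIM2 sites, up to 6 genes nearest to at least 3 members and the promoter members of the gene lists are named, and of the first 4 sets up to 3 sequences are shown. Ties among genes nearest to 3 members were ordered by fold. Jarid2, Pcdh7, Sulf2, Malat1, Neat1 and the members with the highest normalised MED1 tag counts were added after their values were seen. So were the snRNA and histone sequences and the Axin2 sequence. The members and lists were chosen with earlier results of these data known. Python 3.11.15, scipy 1.17.1, statsmodels 0.14.6, pysam 0.24.0 and bedtools 2.31.1 were used. SOX2 and the EB3 maps of other factors are not analysed here, and a few items are not reported here.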

Additional observations from a re-analysis of the deposited data

How the results depend on the processing

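Under all alternatives tried, SIM2 sites and sites with MED12 alone were rarer among members (differences of -55.5 to -11.7 and -49.0 to -27.4 percentage points, with every adjusted p under the threshold). Leaving out each clone in turn gave -31.7 to -11.7 points for SIM2 sites. With Mediator peaks at least 8 times the input, 13 members were left, the promoter difference was 21.0 points and passed the threshold, that for both subunits was -19.6 and no longer passed, and that for clustering reversed to 0.699. The promoter difference also passed with all annotated genes (6.30) and with a minimum of 8 times the input for NANOG and OCT4 (4.08). The CpG-rich difference did not pass with sites above the input floor left out (0.637) or with the MED12 list alone (0.787), and clustering did not pass with the MED12 list alone (-8.33), which had 127 members. The number of members was otherwise 270 to 531. With no EB3 peak at any site, the EB3 comparison could not move and says nothing about stability. No paired analysis was possible because the compared groups are sets of sites within the same libraries. With 14 tags as the lowest number in a Mediator peak, weaker Mediator binding could not be detected, and a site without a NANOG or OCT4 peak may hold weak binding under the limit of those lists.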
